A study of Mus musculus with 8 samples.

Results

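The 10 genes described here encode the precursors of neuropeptides made by neurons of the spinal dorsal horn: Tac1, Penk, Pdyn, Sst, Npy, Nts, Grp, Gal, Cck and Adcyap1. They were chosen by name, and all 10 were found among the 41325 genes of the expression tables and were among the 17067 genes with enough reads to be tested. The samples were lumbar and thoracic spinal cord taken at postnatal day 14, and their polyadenylated transcripts were sequenced. The wild-type (WT) mice were C57BL/6J, and the triple knockout (TKO) mice were Mir34a-/-; Mir34bc-/-; Mir449-/-, so they lacked the microRNA family of miR-34 and miR-449. Each of the 4 groups (lumbar WT, lumbar TKO, thoracic WT and thoracic TKO) had 2 libraries. The title of the series names spinal muscular atrophy, and the mutation that causes that disease is in none of the labels of these groups. The deletions are not described as limited to a tissue, and the background strain of the TKO mice is not given in the labels.

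Neuropeptides are cut from larger precursors inside dense-core vesicles, where convertases and amidating enzymes finish them, and they act on G-protein-coupled receptors at a distance from the site of release. In the dorsal horn they are made by local neurons that relay or damp signals of pain, itch and touch. Substance P, from Tac1, and gastrin-releasing peptide, from Grp, are known as excitatory transmitters of pain and itch circuits, while enkephalins, dynorphins, somatostatin, neuropeptide Y and galanin mostly act on inhibitory receptors.

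Total gene reads ran from 16195212 to 20907819 per library, and a member had between 47 reads (Gal in thoracic WT replicate 1) and 2989 reads (Penk in thoracic WT replicate 2). The mitochondrial share of reads was 4.99% and 6.53% in replicate 2 of lumbar and thoracic TKO and 9.45% to 16.8% in the other 6 libraries. The intron share of gene reads was 6.23% and 6.69% in those TKO replicate 2 libraries and 4.39% to 5.22% in the other 6. Gene reads include intron reads, which made up from 0.741% of the reads of Penk to 15.5% of those of Grp. The genes of the deleted microRNAs (Mir449a, Mir449b, Mir449c, Mir34a, Mir34b and Mir34c) were at 0 in WT and TKO alike, so these libraries could not check the deletions. Cdc20b, the host gene of the Mir449 locus, had 10, 16, 8 and 18 reads in the TKO libraries and 0, 2, 0 and 1 in WT. The tissue label was checked on marker genes. Of 15 genes listed as markers of sensory ganglia, 7 had too few reads to be tested, among them Trpv1, at most 0.0756 RPKM (reads scaled for exon length and library size), Scn10a, at most 0.0197 RPKM, and Mrgprd, at most 0.0173 RPKM. The other 8 were tested, and of these Prph, at up to 27.4 RPKM, and Calca, at 5.47 to 10.8 RPKM, which motor neurons of the cord also express, were the highest, while Pou4f1 reached 1.63 RPKM and P2rx3 0.529 RPKM. All 29 dorsal horn neuron genes of a marker list had enough reads to be tested. The tissue was whole cord, so a lower value of a gene in a group can mean fewer cells of a type or less RNA per cell, and these cannot be told apart.

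The deleted microRNAs are shown first because the genotypes differ in them and microRNAs are known to pair with transcripts through the seed. Whether any value below comes about in this way was not tested. The mature 5p sequences below, from RefSeq on GRCm38.p6, have bases 2 to 8, the seed, in capitals. They lie on chromosome 4 (miR-34a), chromosome 9 (miR-34b) and chromosome 13 (miR-449a and miR-449c), and all 4 carry the same seed, GGCAGUG. The sequences of miR-34c and miR-449b were missing from the reference used and are not shown.
mmu-miR-34a-5p: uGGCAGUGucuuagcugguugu
mmu-miR-34b-5p: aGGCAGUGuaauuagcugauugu
mmu-miR-449a-5p: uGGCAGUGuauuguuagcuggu
mmu-miR-449c-5p: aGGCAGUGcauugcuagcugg

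The 7-base complement of the seed, CACTGCC, was searched on the transcribed strand of the longest annotated 3' UTR of each gene (GENCODE vM21 on GRCm38). It was found once in Penk and once in Adcyap1 and in none of the other 8 members. Across tested genes with an annotated 3' UTR, 2574 of 14951 (17.2%) held it. The Penk match lies at chr4:4133701-4133707 on the minus strand, at base 132 of a UTR of 308 bases. The Adcyap1 match lies at chr17:93205065-93205071 on the plus strand, at base 938 of a UTR of 2410 bases. Both are printed with 11 bases on each side and the match in capitals. A match of letters is not evidence of a working site.
Penk site: ctagataactaCACTGCCtgaaagctgtg
Adcyap1 site: tctgtaggttcCACTGCCtgacagatcag

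Mean levels ran from 5.27 to 78.4 RPKM, the scale used to compare genes because it divides by exon length. Penk, the precursor of the enkephalins, had 78.4 ± 12.1 RPKM (mean ± SD over the 8 libraries), and Sst, the precursor of somatostatin, had 77.4 ± 20.2 RPKM. Penk was above Sst in 5 of 8 libraries, so these top levels did not differ beyond their spread. Their mean RPKM was at or above that of 97.4% and 97.3% of tested genes.

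Npy, which encodes neuropeptide Y, followed at 22.8 ± 5.75 RPKM and Nts, which encodes neurotensin, at 21.0 ± 5.58 RPKM, with Npy above Nts in 4 of 8 libraries. Adcyap1, the gene of the peptide PACAP, had 11.4 ± 2.88 RPKM and Tac1 had 9.65 ± 2.49 RPKM, and Adcyap1 was the higher in 6 of 8. The lowest 4 were close together. Cck, which encodes cholecystokinin, had 7.28 ± 1.87 RPKM, and Pdyn, the dynorphin precursor, had 6.17 ± 1.27 RPKM. Grp had 5.68 ± 1.33 RPKM and Gal, which encodes galanin, had 5.27 ± 1.31 RPKM. Cck and Pdyn each exceeded the next gene in this order in 6 of 8 libraries, and Grp exceeded Gal in 5. Sst exceeded Npy, Nts exceeded Adcyap1 and Tac1 exceeded Cck in all 8 libraries.

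**Figure D1:**
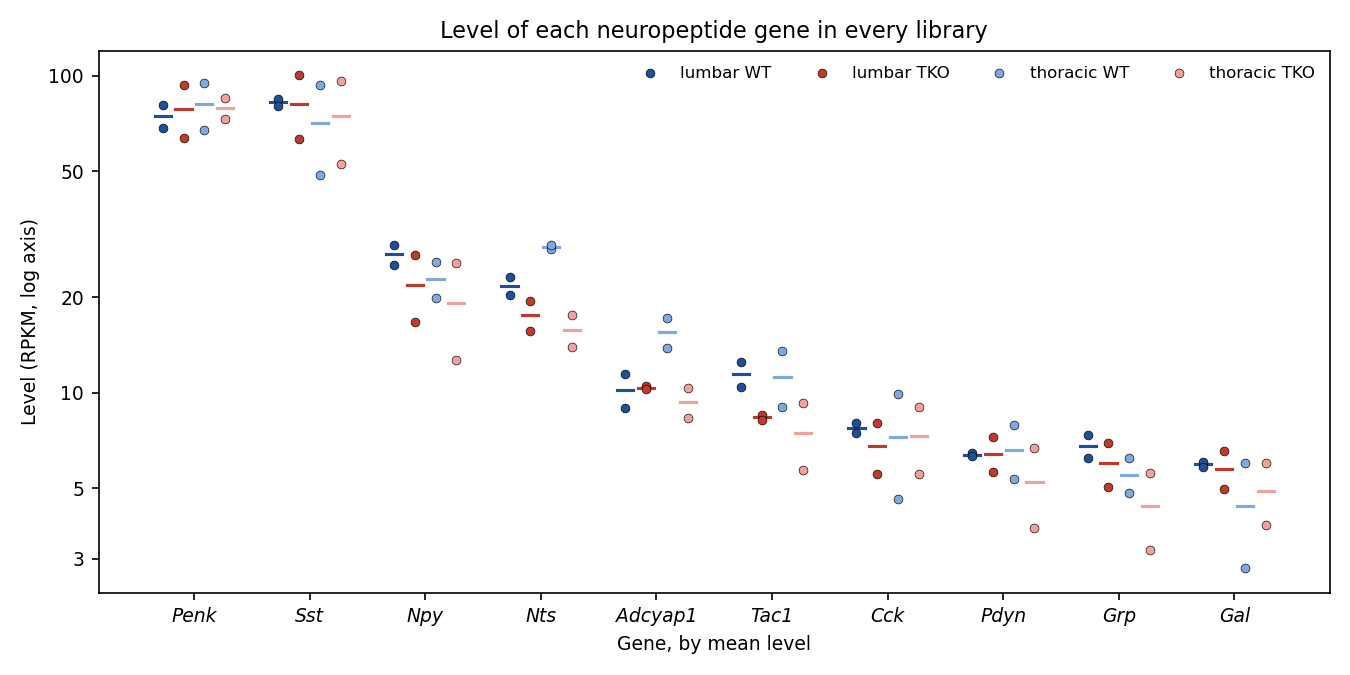
RPKM of each gene on a log axis in the 8 libraries, with points for libraries, short bars for the mean of the 2 libraries of a group and colours for the groups. Penk and Sst lie at 48.5 RPKM or more in every library, and both Nts points of TKO lie below those of WT in the same segment.

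The main question of the design was whether expression differed between TKO and WT. None of the 10 members passed an adjusted p of 0.05 in edgeR's quasi-likelihood test over both segments, where 0.357% of all tested genes (61 of 17067) did. The number of members with an unadjusted p under 0.05 was 3 (Nts, Tac1 and Adcyap1), against 19.1% of all tested genes. The log2 fold change, TKO minus WT, was below 0 for 7 members and above 0 for 3, with a median of -0.20, while the median over all tested genes was 0.00. Values per library are given below in CPM (gene reads scaled for library size with TMM factors), which serves to compare a gene across libraries but not genes with each other.

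Nts had the smallest p of the members. Its level was 26.1 and 30.1 CPM in lumbar WT, 25.9 and 19.1 CPM in lumbar TKO, 40.6 and 36.3 CPM in thoracic WT and 19.1 and 22.3 CPM in thoracic TKO. All 4 TKO libraries lay below all 4 WT libraries, by a narrow margin in the lumbar cord and a wide one in the thoracic cord. The mean was 21.6 ± 3.23 CPM in TKO and 33.3 ± 6.44 CPM in WT (SD, n = 4 each). The log2 fold change over both segments was -0.61 (SE 0.14, 95% interval -0.93 to -0.29), with an edgeR adjusted p of 0.107. In the lumbar cord it was -0.32 (edgeR adjusted p 0.918), which was -0.55 without lumbar TKO replicate 1 and -0.12 without lumbar TKO replicate 2. In the thoracic cord it was -0.89 (edgeR adjusted p 0.192). DESeq2 on the same counts called Nts over both segments (log2 fold change -0.61, adjusted p 0.0119), where it called 3.94% of all tested genes, and in the thoracic cord (-0.89, adjusted p 0.0117), where it called 2.45%.

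Tac1 had 37.5 and 45.1 CPM in lumbar WT, 31.8 and 28.2 CPM in lumbar TKO, 35.1 and 46.7 CPM in thoracic WT and 22.2 and 33.1 CPM in thoracic TKO. Every TKO library was again below every WT library, and the closest pair was thoracic TKO replicate 2 and thoracic WT replicate 1. The means were 28.9 ± 4.88 CPM in TKO and 41.1 ± 5.66 CPM in WT (SD, n = 4 each). The log2 fold change was -0.51 (SE 0.16, 95% interval -0.88 to -0.14), with an edgeR adjusted p of 0.180. It was -0.46 in the lumbar cord and -0.56 in the thoracic cord, with edgeR adjusted p-values of 0.905 and 0.240. The thoracic value was -0.29 without TKO replicate 1, -0.34 without WT replicate 2 and -0.88 without TKO replicate 2.

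Adcyap1 had 19.6 and 25.2 CPM in lumbar WT, 23.5 and 21.5 CPM in lumbar TKO, 32.7 and 36.8 CPM in thoracic WT and 19.4 and 22.8 CPM in thoracic TKO. The thoracic WT libraries stood above the other 6, and the lumbar WT and TKO libraries overlapped. The thoracic log2 fold change was -0.72 (SE 0.19, 95% interval -1.15 to -0.29) with an edgeR adjusted p of 0.199, and DESeq2 put the same contrast at an adjusted p of 0.0498. In the lumbar cord it was 0.01 (95% interval -0.42 to 0.44, edgeR adjusted p 0.999). Over both segments it was -0.36 (edgeR adjusted p 0.221).

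Tac1 and Nts were the only members whose 4 TKO and 4 WT libraries did not overlap, both with TKO lower, a pattern shown by 5.37% of all tested genes. Within the lumbar cord the TKO libraries of Tac1, Npy, Nts and Cck lay below those of WT, against 17.1% of all tested genes. Within the thoracic cord this held for Tac1, Nts and Adcyap1, against 27.4%. On the RPKM scale, which rests on exon reads and has no TMM scaling, Tac1 overlapped in the thoracic cord (9.27 RPKM in TKO replicate 2 and 9.01 RPKM in WT replicate 1), as Npy and Cck did in the lumbar cord, while Nts still did not overlap. No member had all its TKO libraries above those of WT over both segments, in the lumbar or in the thoracic cord, where 5.32%, 17.4% and 26.8% of all tested genes did.

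The remaining members had no unadjusted p under 0.05 over both segments. Npy had 15.4 and 18.1 CPM in lumbar WT and 10.7 and 15.3 CPM in lumbar TKO, and 12.9 and 15.3 CPM in thoracic WT against 8.21 and 15.2 CPM in thoracic TKO. The thoracic ranges overlapped, and the low value of 8.21 CPM was replicate 1. The Npy log2 fold change over both segments was -0.32 (95% interval -0.80 to 0.16, edgeR adjusted p 0.409). That of Grp was -0.24 (95% interval -0.73 to 0.24), of Pdyn -0.15 (95% interval -0.56 to 0.26) and of Cck -0.12 (95% interval -0.64 to 0.40). Without thoracic TKO replicate 1 the value was -0.12 for Npy and -0.08 for Grp, and without thoracic TKO replicate 2 it was -0.57 and -0.44.

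The most abundant opioid precursor showed little difference between genotypes. Penk had 115 and 137 CPM in lumbar WT, 111 and 148 CPM in lumbar TKO, 122 and 154 CPM in thoracic WT and 130 and 141 CPM in thoracic TKO. In both segments the TKO and WT libraries overlapped. The means were 133 ± 16.5 CPM in TKO and 132 ± 17.3 CPM in WT (SD, n = 4 each), and the log2 fold change was 0.01 (95% interval -0.31 to 0.32). Penk overlaps the noncoding gene A830012C17Rik on the other strand, which had 26 reads over the 8 libraries. Sst, at 0.01 (95% interval -0.50 to 0.52), and Gal, at 0.05 (95% interval -0.46 to 0.55), also lay near 0, with wider intervals. These intervals do not show that the levels were equal.

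**Figure D2:**
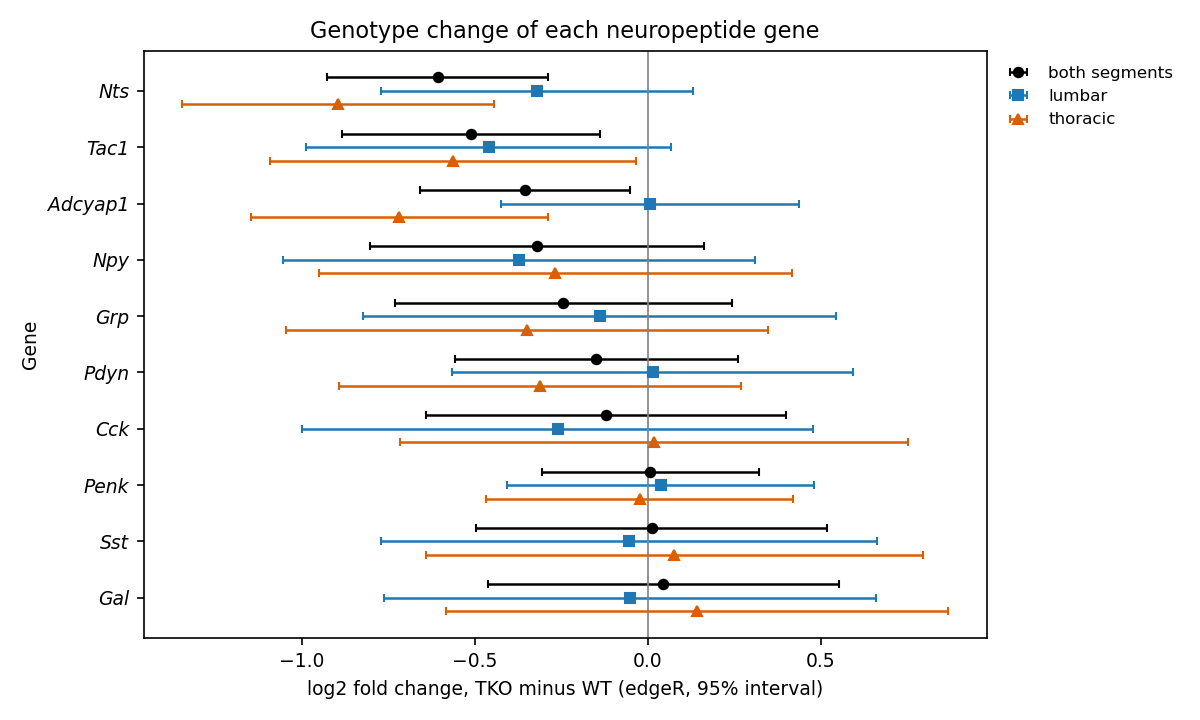
The log2 fold change of each gene, TKO minus WT, from edgeR on the x axis, with 95% intervals, over both segments (circles), in the lumbar cord (squares) and in the thoracic cord (triangles). The intervals of Nts, Tac1 and Adcyap1 over both segments lie below 0, none of them past the adjusted threshold, and those of the other 7 genes include 0.

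Whether the genotype effect differed between segments was tested as the lumbar minus the thoracic log2 fold change. No member passed the adjusted threshold, and 0.00586% of all tested genes (1 of 17067) did. An unadjusted p under 0.05 was found for 1 member, Adcyap1, against 3.5% of all tested genes. Its difference was 0.72 (95% interval 0.12 to 1.33, edgeR p 0.0242, adjusted p 0.852). The difference for Nts was 0.57 (95% interval -0.06 to 1.21, edgeR adjusted p 0.852) and 0.33 without lumbar TKO replicate 1, so the larger thoracic value of Nts was not shown to differ from the lumbar one. Within one segment alone, 0 of 10 members passed in the lumbar cord, where 0.041% of all tested genes did, and 0 of 10 in the thoracic cord, where 0.0352% did. Members with an unadjusted p under 0.05 numbered 0 in the lumbar cord, against 5.7% of all tested genes, and 3 in the thoracic cord (Nts, Adcyap1 and Tac1), against 19.9%.

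The thoracic and lumbar cord were also compared over both genotypes. No member passed the adjusted threshold or an unadjusted p of 0.05, where 0.082% and 2.41% of all tested genes did, and DESeq2 called no member either. The thoracic minus lumbar log2 fold change was -0.33 for Grp (95% interval -0.82 to 0.16), -0.32 for Gal (95% interval -0.83 to 0.19) and 0.27 for Adcyap1 (95% interval -0.03 to 0.57). Leaving out single libraries moved Grp from -0.53 (without thoracic TKO replicate 2) to -0.18 (without thoracic TKO replicate 1) and Gal from -0.57 (without thoracic WT replicate 2) to -0.13 (without thoracic WT replicate 1). With all 8 libraries, the values of the other 7 members lay between -0.20 and 0.16. The thoracic and lumbar libraries overlapped for all 10 members, while 0.668% of all tested genes were lower and 0.504% higher in every thoracic library than in every lumbar one.

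Much of the spread lay between libraries of the same group. All 10 members were below their own mean over the 8 libraries in thoracic TKO replicate 1, by 0.45 on average on the log2 scale. All 10 were above their own mean in lumbar WT replicate 2 and thoracic WT replicate 2. The share of all tested genes below or above their own mean in these libraries was not counted, so these counts are not shown to be particular to the members. Replicate 2 exceeded replicate 1 for 10 of 10 members in thoracic TKO and for 9 of 10 in thoracic WT, while 51.1% of all tested genes did so in each of these groups. In both lumbar groups it did so for 6 of 10. The largest difference within a group was 1.88-fold for Cck, 1.82-fold for Gal and 1.74-fold for Sst, all in thoracic WT, and 1.85-fold for Npy in thoracic TKO. Nts differed by at most 1.35-fold, Penk by at most 1.34-fold and Adcyap1 by at most 1.29-fold within a group.

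**Figure D3:**
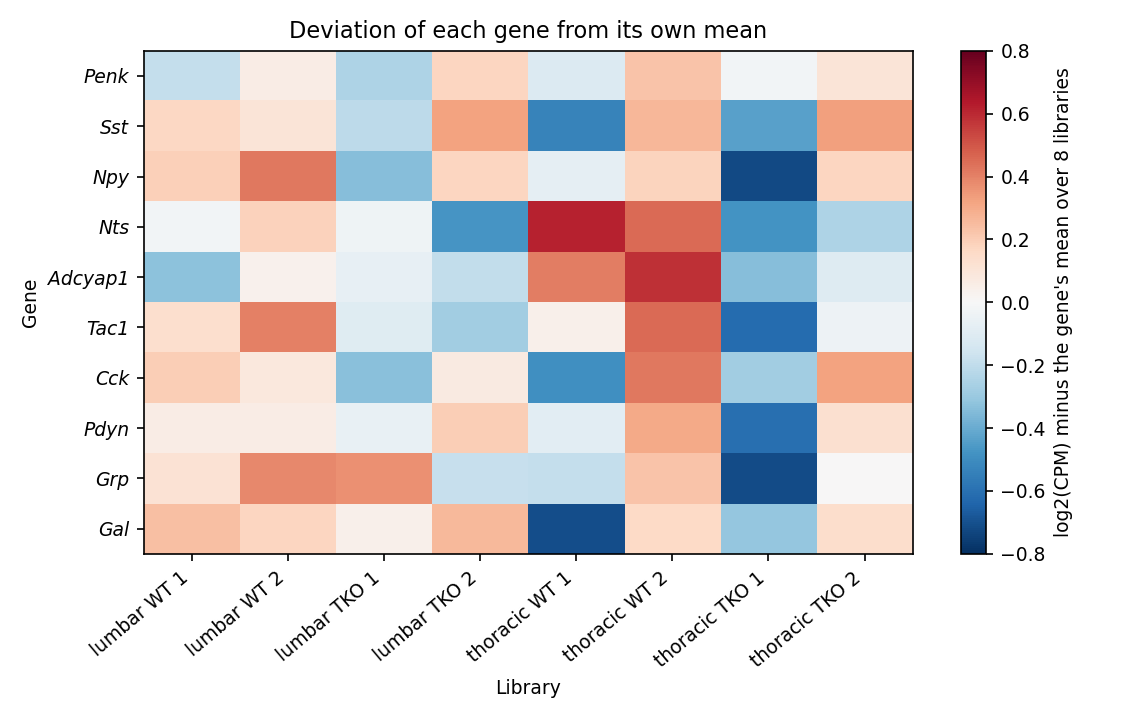
Heat map of log2(CPM) minus the mean of the gene over the 8 libraries, with genes as rows and libraries as columns. The column of thoracic TKO replicate 1 is blue (low) for all 10 genes, and Nts and Adcyap1 are red (high) in both thoracic WT libraries.

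The members varied in part together over the 8 libraries, which share genotype, segment and library differences. The highest Pearson correlation of log2 CPM was between Sst and Cck (r = 0.92), followed by Sst and Gal (r = 0.90), Nts and Adcyap1 (r = 0.86) and Pdyn and Npy (r = 0.86). Nts and Gal went the other way (r = -0.37). Among 12151 tested genes with a mean of 5 CPM or more, the genes most correlated with Penk were Csrnp2 (r = 0.95) and Hjurp (r = 0.91). For Sst they were Trim62 and Tspan33 (r = 0.97 for each), and for Npy Zbtb7c and Ttll11 (r = 0.94 for each). With 8 libraries and so many genes searched, high values of r are found for many genes.

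Promoter letters are shown for the 7 members of these 4 most correlated pairs, those without a match included, a choice made after the levels were seen. RefSeq windows (GRCm38.p6), from 250 bases before to 50 bases after a start site, were matched for 8 members; Penk and Grp were not used. They were searched on both strands for the cAMP response element TGACGTCA, which binds CREB, and for its shorter core TGACG, which the full element also contains. On the other strand the core reads CGTCA. The full element was found in Sst alone, and 588 of the 32851 windows searched across genes (1.79%) held it. At least 1 core was found in Tac1, Sst, Nts, Gal, Cck and Adcyap1 and none in Npy or Pdyn, and 20.8% of the searched windows held one. These shares are per window and not per gene, and Pdyn and Adcyap1 had 2 windows each. The 120 bases before the start site follow, 5' to 3' on the strand of the gene, with matches in capitals. They lie at chr16:23890845-23890964 (Sst, minus strand), chr9:121495695-121495814 (Cck, minus strand), chr19:3414545-3414664 (Gal, minus strand), chr10:102490419-102490538 (Nts, minus strand), chr17:93198897-93199016 (Adcyap1, first of 2 starts, plus strand), chr2:129699939-129700058 (Pdyn, first of 2 starts, minus strand) and chr6:49822590-49822709 (Npy, plus strand). The cores of Nts and Gal lie outside the printed stretches.
Sst: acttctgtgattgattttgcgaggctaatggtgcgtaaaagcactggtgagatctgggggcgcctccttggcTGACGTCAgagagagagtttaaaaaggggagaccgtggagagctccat
Cck: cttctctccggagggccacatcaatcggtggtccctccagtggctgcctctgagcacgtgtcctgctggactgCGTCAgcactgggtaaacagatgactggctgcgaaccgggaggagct
Gal: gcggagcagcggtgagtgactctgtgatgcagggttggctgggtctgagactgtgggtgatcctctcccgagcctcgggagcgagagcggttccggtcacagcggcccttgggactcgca
Nts: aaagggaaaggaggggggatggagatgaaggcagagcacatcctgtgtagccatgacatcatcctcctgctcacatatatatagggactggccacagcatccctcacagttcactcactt
Adcyap1: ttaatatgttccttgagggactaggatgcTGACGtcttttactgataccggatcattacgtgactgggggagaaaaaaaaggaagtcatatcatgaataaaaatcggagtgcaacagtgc
Pdyn: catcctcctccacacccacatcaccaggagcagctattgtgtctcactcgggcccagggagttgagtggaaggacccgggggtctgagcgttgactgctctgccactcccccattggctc
Npy: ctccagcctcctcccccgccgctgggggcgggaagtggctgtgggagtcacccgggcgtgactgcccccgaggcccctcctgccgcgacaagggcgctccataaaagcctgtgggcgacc

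Immediate early genes that CREB is known to regulate were listed beside this. None of the 8 passed the adjusted threshold over both segments, with a median log2 fold change of 0.54. Arc, which encodes a synaptic scaffold protein, had the smallest p (12.7 ± 4.13 CPM in WT and 23.2 ± 4.07 CPM in TKO, SD, n = 4 each, edgeR adjusted p 0.148).

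Genes around the members were described from lists: other neuropeptides, receptors, processing, degradation and dorsal horn neuron markers. Of 26 other neuropeptide genes 17 were tested, and none passed over both segments (median log2 fold change -0.03). Calca, the gene of the sensory peptide CGRP, had 18.1 ± 2.04 CPM in WT and 11.4 ± 1.09 CPM in TKO (SD, n = 4 each), with a log2 fold change of -0.66 (edgeR adjusted p 0.094). Its WT and TKO libraries did not overlap, with TKO lower, as for 5.37% of all tested genes. Crh (-0.93, edgeR adjusted p 0.152), Npb (1.07, adjusted p 0.228) and Vip (-0.52, adjusted p 0.246), which encode corticotropin-releasing hormone, neuropeptide B and vasoactive intestinal peptide, also missed the threshold. Crh and Npb were low, at 0.721 to 2.73 CPM and 0.306 to 2.27 CPM over the 8 libraries, so their values rest on few reads.

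Between segments, Vip was the only gene of these lists that passed. It had 0.62 and 0.99 CPM in lumbar TKO, 1.34 and 1.65 CPM in lumbar WT, 3.83 and 4.82 CPM in thoracic TKO and 4.95 and 4.64 CPM in thoracic WT. The 4 thoracic libraries were all above the 4 lumbar ones. The thoracic minus lumbar log2 fold change was 2.05 (SE 0.22, edgeR adjusted p 0.0102). Leaving out lumbar WT replicate 1, lumbar WT replicate 2 or thoracic TKO replicate 2 ended the call in edgeR (adjusted p 0.0846, 0.0811 and 0.0544), at log2 fold changes of 1.98, 2.13 and 1.96. Cartpt, which encodes the CART peptide, followed at 0.99 (edgeR adjusted p 0.254).

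None of 21 tested receptor genes, of 24 listed, passed over both segments (median log2 fold change -0.08). Ntsr2, a neurotensin receptor, had 155 ± 6.33 CPM in WT and 201 ± 6.31 CPM in TKO (SD, n = 4 each). Its log2 fold change was 0.38 (edgeR adjusted p 0.131). All its TKO libraries lay above all WT libraries, as for 5.32% of all tested genes. Vipr2, a receptor for VIP and PACAP, stood at -0.67 (edgeR adjusted p 0.186). The neuropeptide Y receptor genes Npy2r and Npy1r stood at -0.51 (adjusted p 0.199) and -0.48 (adjusted p 0.231). Between segments the smallest p-values were those of Oprd1, the delta opioid receptor (0.48), and Grpr, the receptor of gastrin-releasing peptide (0.69), each at an edgeR adjusted p of 1.00.

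Processing and storage genes showed no shared direction. Of 20 listed and tested, 10 lay above 0 and 10 below (median log2 fold change 0.02), and none passed. Cadps2, a dense-core vesicle priming factor, stood at -0.30 (edgeR adjusted p 0.230). Pcsk1n, which encodes the convertase inhibitor proSAAS, stood at 1.13 (adjusted p 0.234) with overlapping libraries. Ptprn, a vesicle membrane protein, stood at 0.59 (adjusted p 0.264) and Sort1, the sortilin that also binds neurotensin, at 0.23 (adjusted p 0.270). Between segments the smallest p-values were those of Cpd, a carboxypeptidase (0.27), and Cadps, which primes vesicles for release (0.14), each at an edgeR adjusted p of 1.00.

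Of 12 peptide-degrading enzymes, 1 passed and was lower in TKO. Dpp4, a dipeptidyl peptidase that cuts neuropeptide Y and PACAP, had 7.15 and 4.52 CPM in lumbar WT, between 2.38 and 3.03 CPM in the 4 TKO libraries, and 9.75 and 10.4 CPM in thoracic WT. Its TKO libraries lay below all WT libraries, as for 5.37% of all tested genes. The log2 fold change was -1.42 (SE 0.19, edgeR adjusted p 0.0285). The call ended when any library other than lumbar TKO replicate 1 was left out, with log2 fold changes of -1.24 (without lumbar WT replicate 1) to -1.56 (without lumbar WT replicate 2) and adjusted p-values up to 0.134. Mme, the enzyme neprilysin that cuts enkephalins and substance P, had 23.1 ± 3.11 CPM in WT and 13.9 ± 1.42 CPM in TKO (SD, n = 4 each), a log2 fold change of -0.72 (edgeR adjusted p 0.0573). Thop1, which encodes thimet oligopeptidase, stood at 0.60 (adjusted p 0.239). Of the reads of Ece2, an endothelin-converting enzyme, 4.5% were uniquely placed, so its value of 0.50 (adjusted p 0.168) is uncertain.

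**Figure D4:**
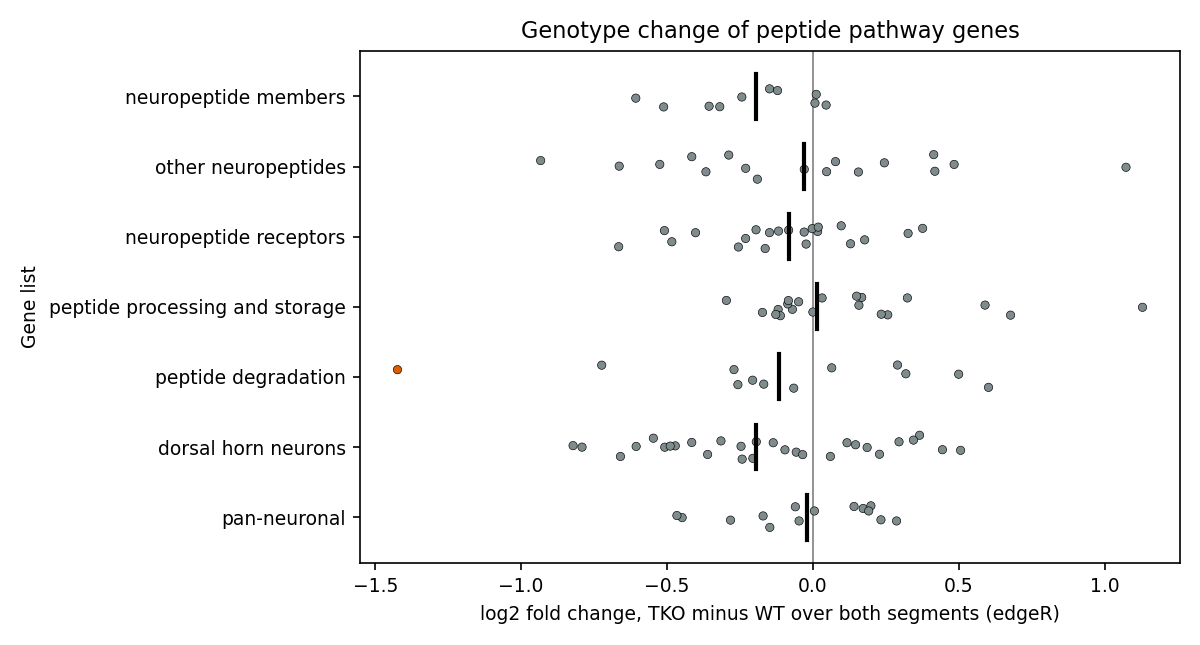
Each point is a tested gene, placed by its log2 fold change over both segments (TKO minus WT, edgeR), and each row is a gene list with its median as a black bar. Dpp4, in orange at -1.42, was the only gene of these lists with an adjusted p under 0.05.

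The dorsal horn neuron markers had a median log2 fold change of -0.19, close to that of the members, with 19 of 29 below 0 and none past the threshold. Their summed level was 1002 to 1123 CPM in TKO and 1125 to 1303 CPM in WT, so the genotypes just did not overlap. This sum mostly follows its genes with many reads, such as Slc17a6 and Reln (26063 and 26005 reads over the 8 libraries). Tlx3 and Lbx1 (145 and 964 reads) weigh little in it, so it is no measure of the number of dorsal horn neurons. Cbln2, which encodes a synapse organizer, stood at -0.79 (edgeR adjusted p 0.0573), and leaving out lumbar TKO replicate 1 made it pass (adjusted p 0.0387). Maf and Mafa, transcription factors of deep dorsal horn neurons, stood at -0.61 (adjusted p 0.106) and -0.82 (adjusted p 0.107). Gad2, a GABA-synthesizing enzyme, stood at -0.42 (adjusted p 0.117). Between segments the smallest p-values were those of Nos1, which makes nitric oxide (0.39), and Calb2, which encodes calretinin (-0.26), at edgeR adjusted p-values of 1.00.

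Several lists of markers of other cells leaned in 1 direction in TKO, with few or no genes called. The part of such cells in the values of the members, and of the listed genes such as Dpp4, was not tested. General neuronal genes had a median log2 fold change of -0.02 with none of 14 called, and a summed level of 6451 to 7647 CPM in TKO and 7045 to 7924 CPM in WT. Myelinating oligodendrocyte genes were above 0 for 13 of 14 (3 called: Klk6, Opalin and Hapln2), and their summed level was 60254 to 76412 CPM in TKO and 50037 to 52131 CPM in WT. Astrocyte genes were above 0 for 10 of 12 (none called), at 8868 to 10434 CPM in TKO and 7873 to 8696 CPM in WT. Microglial genes were above 0 for 11 of 12 (2 called: Ctss and Csf1r), at 592 to 877 CPM in TKO and 539 to 631 CPM in WT. Meningeal fibroblast genes were below 0 for 12 of 12 (2 called: Lum and Dcn), at 266 to 521 CPM in TKO and 653 to 1101 CPM in WT. Part of that sum is uncertain, since only 1.17% of the reads of Igf2 were uniquely placed. Igf2 made up 34.4 to 70.3 CPM of it in TKO and 111 to 216 CPM in WT. Cell cycle genes were below 0 for 12 of 12 (none called), at 51.8 to 98.3 CPM in TKO and 123 to 151 CPM in WT. Sensory ganglion genes summed to 58.9 to 74.9 CPM in TKO and 52.1 to 89.2 CPM in WT with 8 of 15 tested and none called. Brain stem and hypothalamus genes summed to at most 19.9 CPM in any library, with 6 of 12 tested and none called.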

How the data were processed

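Per the labels' protocols, RNA for the 8 libraries was isolated on columns, and a strand-keeping mRNA kit was used. The authors deposited 1 table per library with whole-number read counts per gene (exon, intron and gene reads, total and unique) and RPKM values per gene, per the file headers. RPKM as deposited rests on exon reads and exon length. Per the submitters' processing notes, mm10 was used. For the aligner, the counter and the strand setting the sources used here give nothing.

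Total gene read counts were scaled with TMM, filtered with filterByExpr and tested with edgeR 4.0.16 (quasi-likelihood, robust, R 4.3.3). One model held all 8 libraries and 4 group means, and p-values were Benjamini-Hochberg adjusted over 17067 genes with a threshold of 0.05. DESeq2 1.42.0 and limma 3.58.1, on log2(RPKM + 0.5) or log2(RPKM + 0.1), were alternatives, beside other size factors, filters and count columns, a replicate block and left-out libraries. Python 3.11.15 with pandas 2.3.3 and numpy 2.4.6 made the summaries, and matplotlib 3.10.9 the plots. Correlations used log2 CPM. On simulated counts for the contrast over both segments, the test found 78% of the genes with a 2-fold change and 99% of those with a 4-fold change. It also called 7 unchanged genes, out of 17067. The simulated counts gave every gene the same dispersion (0.033) and held no differences shared by the genes of a library. These shares therefore do not say what the test would find in the real libraries. There, none of the 12 cell cycle genes was called, at a median log2 fold change of -0.93. No library was a repeat of the other library of its group, since same-group counts gave a chi-square of 14.6 to 65.7 per degree of freedom. Libraries of different groups were not compared in this way. Separate animals are not stated for the replicates, so p-values measure only how these samples spread, and that spread may be technical. Intervals come from the model and cover no other source of error, and a count of 0 allows up to 3 reads.

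The members and lists were chosen with earlier results of these data known. The genes named are the 10 members, genes of the 5 peptide and dorsal horn lists that passed, and up to 4 of each with the smallest p over both segments and up to 2 between segments. From cell type lists up to 3 were allowed, and those that passed are named. For the 3 members of highest RPKM the 2 most correlated genes are named. Cdc20b, Trpv1, Scn10a and Mrgprd serve as checks of the labels.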

Additional observations from a re-analysis of the deposited data

Results flagged for a closer look

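Cadps, which encodes a dense-core vesicle priming factor, drew attention because both lumbar TKO libraries lay above both lumbar WT libraries while both thoracic TKO libraries lay below both thoracic WT libraries. It had 245 and 221 CPM in lumbar TKO, 217 and 220 CPM in lumbar WT, 231 and 223 CPM in thoracic TKO and 280 and 263 CPM in thoracic WT. The lumbar margin was within 1 CPM. The lumbar minus thoracic difference of the genotype effects was 0.3483 on the log2 scale (edgeR p 0.114, adjusted p 0.852), so the test of the difference did not pass.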

How the results depend on the processing

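The count of members called by edgeR over both segments, 0, was also 0 under every alternative without crossed numbers except DESeq2, which called 1 (Nts), and DESeq2 called 2 in the thoracic cord (Nts and Adcyap1). The number of all genes called over both segments moved from 61 to 672 with DESeq2, 310 with no filter, 12 with exon reads, 104 with unique gene reads, and 5 and 2 with limma on log2(RPKM + 0.5) and log2(RPKM + 0.1). Leaving out single libraries gave 7 (without lumbar WT replicate 2) to 194 (without lumbar TKO replicate 1), with 9 without lumbar WT replicate 1 and 11 or 12 without any 1 thoracic library. Leaving out both TKO replicate 2 libraries turned the split from 38 higher and 23 lower to 23 higher and 61 lower. Between segments, 14 genes were called, against 34 with DESeq2, 8 with limma on log2(RPKM + 0.5), and 9 to 19 when single libraries were left out. Within the lumbar cord 7 genes were called, 40 with DESeq2, and 1 (without lumbar WT replicate 2) to 6 when single libraries were left out, with 2 without thoracic TKO replicate 1, 3 without thoracic TKO replicate 2 and 4 without either thoracic WT library. Within the thoracic cord 6 were called, 418 with DESeq2, and edgeR called 0 when either TKO library from that segment, or its WT replicate 1, was left out (1022 to 3350 genes had an unadjusted p under 0.05 then), 1 when its WT replicate 2 was, 2 without either lumbar WT library, and 10 and 11 without lumbar TKO replicates 1 and 2. The cause of these shifts was not tested.

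A replicate block called 222 genes over both segments and 0 members. The labels do not say that numbers pair the samples, and deviations of same-numbered libraries correlated from -0.33 to 0.44 between groups, with lumbar WT negative against the other 3. Chosen after seeing these data, a crossed replicate block with the lumbar WT numbers swapped called 4760 genes over both segments and 47 between segments, with 3 members called over both segments and 3 in the thoracic cord, while swapping thoracic WT numbers called 15 genes over both segments and 0 members. The crossing was picked from the libraries themselves, so nothing here rests on it.

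Of 106 log2 values set against 19 alternatives in 1928 comparisons, 1717 kept direction and side of the threshold, 81 lost a call, 47 gained one and 83 turned sign. Nts and Tac1 over both segments stayed negative in all 18 alternatives run for them (-0.71 to -0.51 and -0.67 to -0.38), with adjusted p-values of 0.0119 to 0.416 and 0.0832 to 0.530. Adcyap1 in the thoracic cord ran from -0.84 to -0.59, with adjusted p-values of 0.0498 to 0.853. Leaving out both TKO replicate 2 libraries turned the sign of Penk (-0.14), Sst (-0.35) and Gal (-0.13) over both segments. It did so for Penk (-0.19), Pdyn (-0.12) and Grp (0.10) in the lumbar cord, and for Sst (-0.34), Gal (-0.092) and Cck (-0.31) in the thoracic cord. For the difference between segments it did so for Penk (-0.11) and Npy (0.12), and for thoracic minus lumbar for Cck (-0.019). The replicate block turned Sst over both segments (-0.012) and Cck between segments (-0.0066). Limma turned Pdyn in the lumbar cord (-0.00114 and -0.00186) and Cck between segments (-0.045 and -0.050), and unique gene reads turned Ece2 (-0.33).

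Leaving out single libraries, values that changed sign over both segments ran from -0.10 to 0.11 for Penk, -0.35 to 0.017 for Pdyn, -0.20 to 0.24 for Sst, -0.14 to 0.29 for Gal and -0.31 to 0.14 for Cck. In the lumbar cord they ran from -0.19 to 0.24 for Penk, -0.12 to 0.14 for Pdyn, -0.34 to 0.19 for Sst, -0.44 to 0.11 for Grp, -0.16 to 0.060 for Gal and -0.16 to 0.20 for Adcyap1. In the thoracic cord they ran from -0.18 to 0.16 for Penk, -0.72 to 0.019 for Pdyn, -0.35 to 0.53 for Sst, -0.78 to 0.12 for Npy, -0.23 to 0.64 for Gal and -0.36 to 0.54 for Cck. For the difference between segments they ran from -0.17 to 0.42 for Tac1, -0.16 to 0.25 for Penk, -0.0052 to 0.74 for Pdyn, -0.58 to 0.30 for Sst, -0.49 to 0.41 for Npy, -0.12 to 0.61 for Grp, -0.69 to 0.17 for Gal and -0.80 to 0.10 for Cck. For thoracic minus lumbar they ran from -0.22 to 0.060 for Tac1, -0.0086 to 0.21 for Penk, -0.31 to 0.052 for Pdyn, -0.37 to 0.025 for Sst and -0.23 to 0.23 for Cck. None of these members passed the threshold in edgeR with all 8 libraries. Of the cell type genes that passed, Lum lost its call without lumbar WT replicate 2 (adjusted p 0.056). Klk6 and Dcn lost theirs without any 1 of 6 libraries, and Opalin, Hapln2, Ctss and Csf1r without any 1 of 7, with adjusted p-values up to 0.261. With 2 libraries per group, the depth of Gal, Grp and Cck (47 to 255 reads) and the spread within groups limit what can be seen.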
